A study of Mus musculus with 6 samples.

Results

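The genes described here are 38 genes of Langerhans cells, dendritic cells and macrophages, chosen by symbol as antigen-uptake receptors, Fc receptors and their adaptors, phagocyte enzymes, leukocyte surface and cytoskeleton proteins, and myeloid transcription factors, without the class II presentation genes. A row was found for 37 of the 38 among the 54532 genes of the count table, and Id2os was not matched by name. They were compared between NCAM-enriched cells and bulk skin, with 3 Smart-seq2 libraries of 500 sorted DAPI-negative events per group. Smart-seq2 amplifies full-length cDNA from few cells, and DAPI marks dead cells. All cells came from dissociated dorsal epidermis of C57BL/6 mice of both sexes, aged 4 weeks, with no transgene or treatment named. NCAM-enriched cells were first selected with magnetic beads against polysialylated NCAM, a surface marker of Merkel cells, and then sorted as NCAM-positive. Bulk skin was the same kind of epidermal suspension sorted without NCAM. Nothing in the labels ties the libraries of a group to separate animals, so p-values measure the spread between these libraries, which may be technical.

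Langerhans cells are the resident antigen-presenting cells of the epidermis. They seed the skin from the blood lineage in early life, depend on signals through Csf1r and TGF-beta, and take up pathogens through the lectin langerin, which is encoded by Cd207. Merkel cells are touch receptor cells of the basal epidermis that arise from keratinocyte precursors and do not share this origin. Of the 37 genes, 28 are known mainly from cells of the blood lineage, and 9 (Epcam, Lgals3, Mfge8, Ctsc, Ctsh, Sirpa, Cd40, Runx3 and Ly75) are also made by epithelial, neural or other cells. This division was made from textbook knowledge with earlier results of these data known.

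The libraries held 1343190 to 3798136 counts in the NCAM-enriched group and 3333753 to 4481830 in bulk skin, so that 1 count was worth 0.216 to 0.773 normalised CPM (counts per 1000000 of the TMM-adjusted library total). Merkel cell markers checked the label of the sort: 3 of 6 were higher in NCAM-enriched cells and none was lower, with 187, 58 and 185 counts of Atoh1, the transcription factor that specifies Merkel cells, against 23, 10 and 22 in bulk skin (adjusted p = 0.0403, edgeR quasi-likelihood test). Of the suprabasal keratinocyte markers 2 of 3, Krt10 and Krt77, were also higher in NCAM-enriched cells, and none of the 3 basal keratinocyte markers was called. The suprabasal markers summed to 22931, 11368 and 10715 normalised CPM against 931, 1121 and 799 in bulk skin. Merkel cell markers summed to 1134, 953 and 325 against 150, 119 and 106. Over all genes, 0 were called higher without bulk skin library 1 or 2, and 1 without library 3. Of the T cell markers 5 of 6, and of the red blood cell markers all 4, were lower, as described beside the members below.

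The promoter sequences of members that lay lower in NCAM-enriched cells (Cd207, Cd53 and Cd37, of which Cd37 was not called) and of members that were kept are shown to set the letters beside the values. PU.1, the product of the member gene Spi1, is the transcription factor that commits cells to the myeloid lineage, and its binding sites hold the core GAGGAA. This core, or its reverse complement TTCCTC, was searched on both strands in the 250 bases before each start site (RefSeq, GRCm38.p6), and capitals mark each match in the 180 bases before the start. The first 3 sequences belong to genes that had a match, and the last 2 to kept genes that had none in the bases shown. They lie at chr6:83677858-83678037 (minus strand), chr3:106790150-106790329 (minus strand), chr7:45238840-45239019 (minus strand), chr17:87635799-87635978 (plus strand) and chr14:47373680-47373859 (plus strand).
Cd207: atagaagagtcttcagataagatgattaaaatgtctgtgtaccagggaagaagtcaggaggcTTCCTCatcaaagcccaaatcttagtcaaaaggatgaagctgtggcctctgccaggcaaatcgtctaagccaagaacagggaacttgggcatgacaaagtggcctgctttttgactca
Cd53: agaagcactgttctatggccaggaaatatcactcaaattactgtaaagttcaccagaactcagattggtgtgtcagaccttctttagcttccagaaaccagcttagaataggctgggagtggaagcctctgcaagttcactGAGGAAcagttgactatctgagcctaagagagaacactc
Cd37: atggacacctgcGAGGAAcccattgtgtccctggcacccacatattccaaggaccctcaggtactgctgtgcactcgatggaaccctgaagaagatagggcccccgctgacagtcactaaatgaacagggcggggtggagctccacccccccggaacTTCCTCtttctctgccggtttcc
Epcam: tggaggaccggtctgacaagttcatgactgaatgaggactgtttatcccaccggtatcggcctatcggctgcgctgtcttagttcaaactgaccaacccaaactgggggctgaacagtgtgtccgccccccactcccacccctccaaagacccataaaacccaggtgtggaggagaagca
Lgals3: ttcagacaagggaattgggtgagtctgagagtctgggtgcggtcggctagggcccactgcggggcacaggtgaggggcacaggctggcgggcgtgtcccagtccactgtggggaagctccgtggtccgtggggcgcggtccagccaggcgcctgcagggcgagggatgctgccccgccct

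The match began 118 bases before the start in Cd207 and 39 bases before it in Cd53, while Cd37 had matches 168 and 23 bases before its start. A promoter was found for 26 of the 37 genes, in 32 windows, and 12 of the 32 windows (37.5%) held the core, in Aif1, Cd207, Cd37, Cd53, Cd68, Ctsc, Fcgr3, Itgam, Laptm5, Mfge8 and Ptprc. Among all 32851 windows of the same length, 23.3% held it. It was in 10 of 25 windows (40.0%) of blood-lineage genes and in 2 of 7 (28.6%) of genes also made elsewhere. Ctsc and Mfge8, which held a match, were kept genes too, so the sequences shown are examples and mark no divide. The longer form GAGGAAGT, which contains the core, was in 2 member windows, of Cd37 and Ctsc (6.25%), against 2.44% of all windows. These matches describe letters in a short window and do not show binding.

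Members of the blood lineage lay lower in NCAM-enriched cells as a group, and 15 of them passed edgeR's test. The division by lineage was made with earlier results known, so the contrasts below describe the members and do not test lineage. No member also made elsewhere passed edgeR's test, though other tools called some of them. The 28 blood-lineage genes summed to 6814, 4647 and 6046 normalised CPM in the bulk skin libraries (mean 5836 ± 1099, SD, n = 3) and to 306, 45.6 and 237 in the NCAM-enriched libraries (196 ± 135, n = 3). The groups did not overlap, and the ratio of the means was 29.7. The 9 genes also made elsewhere summed to 2758, 2395 and 1631 normalised CPM in bulk skin (2261 ± 575) and to 3149, 1322 and 3014 in NCAM-enriched cells (2495 ± 1018), and here the groups overlapped. That overlap rested on Lgals3, which gave 1403, 1091 and 652 of the bulk skin sums and 2248, 652 and 2220 of the others. Without Lgals3, the remaining genes together were lower in every NCAM-enriched library than in any bulk skin library. In a sort of many cells, fewer cells of a type and less RNA per cell cannot be told apart.

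Of the 37 genes, 35 passed the filter on low counts, and Cd80 and Cd40 were too low to test. At an adjusted p of at most 0.05 in edgeR's quasi-likelihood test, 15 of the 35 were lower in NCAM-enriched cells and 0 were higher. Over all 13157 genes tested, 1.55% were called lower and 1.04% higher. DESeq2 called 26 members lower and 0 higher (7.05% of all genes were lower), and limma-voom called 25 lower and 0 higher (6.45% of all genes were lower). At an unadjusted p under 0.05 edgeR gave 27 of the 35 lower, while 2493 of all 13157 genes passed that level in either direction. All 3 NCAM-enriched libraries lay under all 3 bulk skin libraries for 28 of the 35, against 19.3% of all genes tested. All 15 edgeR calls were among the 27 tested blood-lineage genes, of which 26 had a fitted change below 0. Since the sets were drawn with earlier results known, this contrast is a description. EdgeR called 0 of the 8 tested genes also made elsewhere. Of these 8, DESeq2 called Ctsc, Ly75 and Runx3 lower, and limma-voom called Ly75 and Runx3. The median log2 fold change was -4.86 over the 35 members, -5.90 over the 27 and -0.78 over the 8, against -0.07 over all genes. With genes of at most 3 NCAM-enriched counts set at their bound or count ratio, the medians were -4.64, -5.22 and -0.78. The calls rested on all 3 bulk skin libraries: without bulk skin library 1 only Cd207 was called, and without library 2 or library 3 only Cd207 and Csf1r, while the member medians stayed between -5.12 and -4.76.

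**Figure D1:**
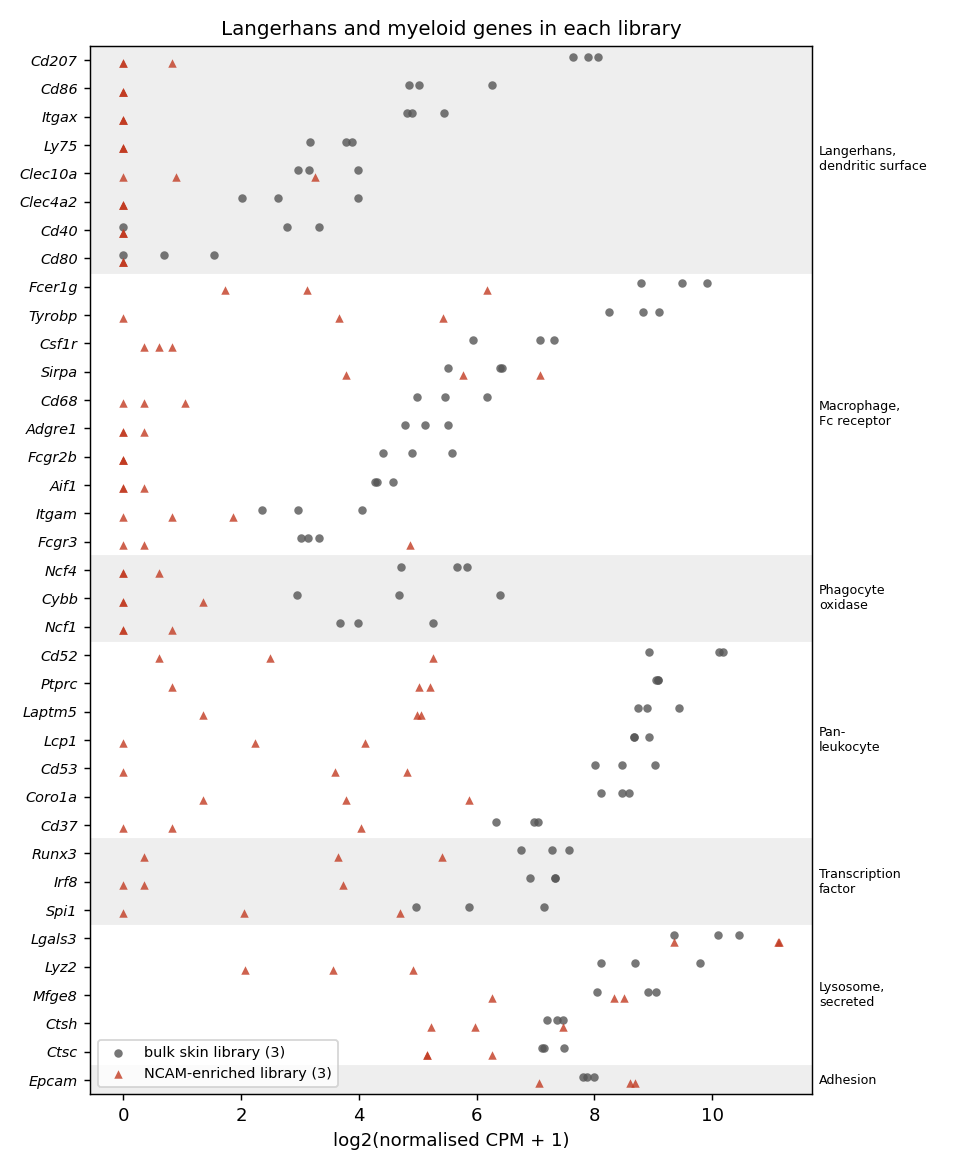
Level of each of the 37 genes in each library, as log2(normalised CPM + 1), grouped by role. Grey circles are the 3 bulk skin libraries and red triangles the 3 NCAM-enriched libraries; Cd207, Itgax and Ptprc stand apart between the groups, while Lgals3, Epcam and Sirpa overlap.

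Few or no counts of the surface genes of Langerhans and dendritic cells were left in NCAM-enriched cells, and 3 of the 6 tested were called lower. Cd207, the gene of the Langerhans lectin (chr6:83671215-83677857, minus strand, GRCm38), had 853, 917 and 862 counts in bulk skin and 0, 1 and 0 in NCAM-enriched cells, or 265, 198 and 236 against 0, 0.773 and 0 normalised CPM. Every bulk skin library was high and a single read was left in the other group. The fitted log2 fold change was -10.19 ± 0.84 (SE, adjusted p = 0.0019), and the call was made under all 13 alternatives. From the pooled counts, Cd207 was lower by a ratio of 1534, with a 95% exact counting interval of 275 to 60624, and by at least 413-fold without NCAM-enriched library 2, which held the only count. Without library 3, the deepest of its group, the ratio was 727.

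Itgax, which encodes the integrin CD11c of dendritic cells, had 137, 134 and 99 counts in bulk skin (42.5, 29.0 and 27.1 normalised CPM), and Cd86, a costimulatory ligand for T cells, had 101, 129 and 277 (31.4, 27.9 and 75.9 normalised CPM). Neither gene had a count in any NCAM-enriched library. With 3 counts taken as the upper limit for the whole group, Itgax was at least 71.9-fold lower (adjusted p = 0.0304) and Cd86 at least 98.5-fold lower (adjusted p = 0.0253). Both bounds rest on depth: without NCAM-enriched library 3 they were 34.1 and 46.7. Without bulk skin library 3 the bound for Cd86 was 65.5. Both calls were lost without any 1 of the bulk skin libraries, with adjusted p up to 0.254 for Itgax and 0.216 for Cd86.

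Of the other 5 surface genes none was called. Ly75, the uptake receptor DEC-205, had 37 to 50 counts per bulk skin library and Clec4a2, an inhibitory lectin, had 14 to 48, with 0 in every NCAM-enriched library (adjusted p = 0.067 and 0.0898). Their bounds were at least 24.9-fold and at least 15.7-fold lower, or 11.8 and 7.46 without NCAM-enriched library 3. Ly75 was called without NCAM-enriched library 2 or library 3. Cd40, a costimulatory receptor, was at 0, 27 and 33 counts in bulk skin, and Cd80, the partner of Cd86, at 2, 0 and 7. Both were at 0 in NCAM-enriched cells. Clec10a, a lectin for galactose-type sugars, was the exception in this role, with 22, 69 and 29 counts in bulk skin and 16, 0 and 3 in NCAM-enriched cells, where the groups overlapped (log2 fold change -1.65 ± 1.44, adjusted p = 0.607).

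Macrophage and Fc receptor genes divided into genes that were near 0 in NCAM-enriched cells and genes that were not. Csf1r, the receptor for CSF1 and IL-34 on which Langerhans cells depend, had 158, 134 and 60.04 normalised CPM in bulk skin and 0.531, 0.773 and 0.284 in NCAM-enriched cells, where each library held 1 count. Its log2 fold change was -7.84 ± 0.77 (adjusted p = 0.0035), it was called under 12 of 13 alternatives, and it missed the threshold without bulk skin library 1 (adjusted p = 0.0586). The pooled counts were lower by a ratio of 262, with an interval of 89.4 to 1271. An overlapping gene, Hmgxb3, covers 15.1% of the exonic bases of Csf1r.

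Cd68, a lysosomal glycoprotein of phagocytes, had 71.4, 30.7 and 43.3 normalised CPM in bulk skin and 1.06, 0 and 0.284 in NCAM-enriched cells (adjusted p = 0.0225, pooled ratio 103, interval 35.05 to 501, and 222 without NCAM-enriched library 1). Adgre1, the gene of the macrophage marker F4/80, had 44.7, 26.6 and 33.997 against 0, 0 and 0.284 (adjusted p = 0.021, ratio 228, interval 40.7 to 9025). Aif1, which encodes the calcium-binding protein IBA1, had 18.3, 18.8 and 23.03 against 0, 0 and 0.284 (adjusted p = 0.0413, ratio 134, interval 23.8 to 5318). For each of the 3 genes the lowest bulk skin library lay far over the highest NCAM-enriched one. Fcgr2b, the inhibitory Fc receptor for IgG, was at 47.2, 20.3 and 28.8 normalised CPM in bulk skin and at 0 in every NCAM-enriched library (at least 68.2-fold lower, adjusted p = 0.0338). Without NCAM-enriched library 3 the limits were at least 36.0-fold for Adgre1, 21.2-fold for Aif1 and 32.3-fold for Fcgr2b. The 4 calls were lost without any 1 bulk skin library (adjusted p up to 0.237 for Cd68, 0.213 for Adgre1, 0.269 for Aif1 and 0.27 for Fcgr2b), and that of Aif1 also without NCAM-enriched library 1.

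Tyrobp and Fcer1g encode the small adaptors that carry activating signals from myeloid, natural killer and mast cell receptors. They were among the most abundant members in bulk skin, at 544, 303 and 453 normalised CPM for Tyrobp and 714, 444 and 962 for Fcer1g. NCAM-enriched libraries had 42.0, 0 and 11.6 for Tyrobp and 71.2, 2.32 and 7.66 for Fcer1g, highest in library 1 for both. All NCAM-enriched libraries lay under all bulk skin libraries, but neither gene was called (adjusted p = 0.0636 and 0.0587). Both were called without NCAM-enriched library 1 (adjusted p = 0.0477 and 0.0133) and without library 2 (adjusted p = 0.0074 and 0.0266). Without library 1 the pooled ratio rose from 23.3 to 49.1 for Tyrobp and from 27.9 to 110 for Fcer1g. Without library 3 it was 15.9 for Fcer1g.

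The remaining 3 genes of this role did not pass the test. Itgam, the integrin CD11b, had 50, 19 and 25 counts against 5, 1 and 0 (adjusted p = 0.338), and 68.7% of its exonic bases overlap the gene model Gm49368, so its counts are uncertain. Sirpa, the receptor for the signal CD47 that restrains phagocytosis, had 83.5, 85.4 and 44.7 normalised CPM in bulk skin and 12.8, 134 and 53.6 in NCAM-enriched cells (log2 fold change -0.10 ± 0.74, adjusted p = 0.963). Fcgr3, the activating Fc receptor for IgG, had 25, 33 and 33 counts in bulk skin and 53, 0 and 1 in NCAM-enriched cells. Its log2 fold change of 0.25 ± 1.65 (adjusted p = 0.959) came from library 1 alone and was -5.16 without it. Fcgr3 shares 9.58% of its 50-base windows with Fcgr2b.

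The 3 subunit genes of the phagocyte oxidase, which makes superoxide to kill ingested microbes, were at 3 counts or fewer over the NCAM-enriched group. Ncf4, encoding the p40 subunit, had 56.2, 49.7 and 25.2 normalised CPM in bulk skin against 0.531, 0 and 0 (adjusted p = 0.0223, pooled ratio 293, interval 52.4 to 11604, and at least 70.3-fold lower when NCAM-enriched library 1 was left out, or 139 without library 3). This call was also lost without any 1 bulk skin library (adjusted p up to 0.212). Cybb, the catalytic subunit, had 269, 31 and 90 counts against 0, 2 and 0, and Ncf1, the organiser subunit, 120, 55 and 54 against 0, 1 and 0. Neither was called (adjusted p = 0.0753 and 0.067), although all of their NCAM-enriched libraries lay under those of bulk skin, and both were called without NCAM-enriched library 2. Cybb also varied within bulk skin, with library 1 far over the others.

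Of 7 pan-leukocyte genes 5 were called lower, and for all 7 the NCAM-enriched libraries lay under those of bulk skin. Ptprc, the gene of the leukocyte phosphatase CD45, was the most even member in bulk skin, at 538, 538 and 526 normalised CPM, and had 36.1, 0.773 and 31.5 in NCAM-enriched cells. Its log2 fold change was -4.52 ± 0.91 (adjusted p = 0.0403). Laptm5, a lysosomal membrane protein of leukocytes, had 473, 691 and 425 against 30.8, 1.55 and 32.3 normalised CPM (-4.59 ± 0.85, adjusted p = 0.0315). Cd53, a leukocyte tetraspanin, had 354, 255 and 521 against 27.1, 0 and 11.1 (-4.86 ± 1.02, adjusted p = 0.0468). In these 3 genes NCAM-enriched libraries 1 and 3 kept low levels and library 2 was at or near 0.

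Cd52, a small anchored glycoprotein of leukocytes, had 1107, 487 and 1168 normalised CPM in bulk skin and 0.531, 4.64 and 37.2 in NCAM-enriched cells (-5.95 ± 1.19, adjusted p = 0.0395). Lcp1, the leukocyte actin-bundling protein, had 489, 408 and 409 against 3.72, 0 and 16.2 (-5.90 ± 0.98, adjusted p = 0.0225). Both were highest in NCAM-enriched library 3, and without it the pooled ratio rose from 42.6 to 398 for Cd52 and from 45.1 to 196 for Lcp1. Coro1a, which regulates leukocyte actin, and Cd37, another tetraspanin, shared this library: they had 24, 2 and 203 counts and 0, 1 and 54 counts in NCAM-enriched cells (adjusted p = 0.0693 and 0.0901). Their pooled ratios were 9.90 and 13.7, and without library 3 they were 41.3 and 358. Both genes were then called (adjusted p = 0.0149 and 0.0071), and Coro1a also without library 2 (adjusted p = 0.0177). The calls of Ptprc, Laptm5, Cd53 and Lcp1 were lost without NCAM-enriched library 1, and those of all 5 genes without any 1 bulk skin library (adjusted p up to 0.218 for Ptprc, 0.178 for Laptm5, 0.224 for Cd53, 0.212 for Cd52 and 0.156 for Lcp1). The gene Crybg2 overlaps 14.5% of the exonic bases of Cd52.

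None of the 3 transcription factor genes was called, and for all 3 every NCAM-enriched library lay under every bulk skin library. Spi1 had 451, 267 and 111 counts against 47, 0 and 11 (log2 fold change -3.01 ± 1.25, adjusted p = 0.236). Irf8, which directs dendritic cell and monocyte development, had 514, 550 and 583 against 23, 0 and 1 (-5.13 ± 1.22, adjusted p = 0.0637). Runx3, which Langerhans cells and some T cells and neurons use, had 496, 871 and 391 against 78, 15 and 1 (-3.09 ± 1.12, adjusted p = 0.174). NCAM-enriched library 1 was the highest of its group for each of them. Irf8 was called when any 1 NCAM-enriched library was left out (adjusted p = 0.0076, 0.0286 and 0.043 without libraries 1, 2 and 3), and Runx3 without library 3. The pooled ratio of Irf8 was 40.0, and 690 without library 1 and 19.8 without library 3.

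**Figure D2:**
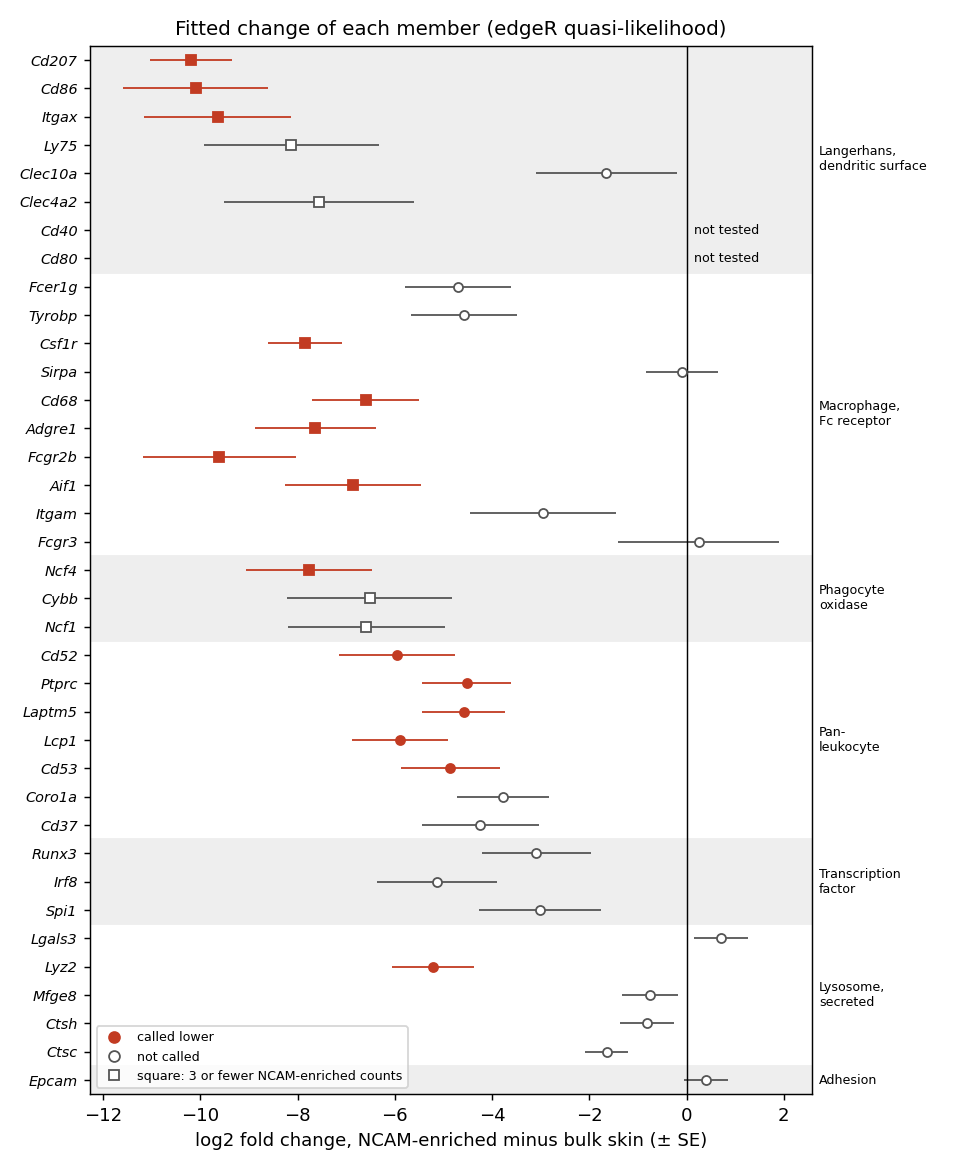
Fitted log2 fold change of each tested gene, NCAM-enriched minus bulk skin, with its standard error as a line. Filled red marks are the 15 genes called lower, open marks the 20 not called, and squares genes with 3 or fewer counts in the NCAM-enriched group, whose fitted size depends on the prior count; Cd207 lies at -10.19 and Lgals3, the farthest to the right, at 0.70.

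Lysosomal and secreted genes and Epcam made up most of what was kept. Taking as kept a gene with at least 5 counts in each NCAM-enriched library, 7 of the 37 were kept, and 6 of these 7 are also made outside the blood lineage. Lgals3, the sugar-binding protein galectin-3 (chr14:47367751-47386160, plus strand), had 2248, 652 and 2220 normalised CPM in NCAM-enriched cells and 1403, 1091 and 652 in bulk skin. Epcam, the epithelial adhesion molecule that Langerhans cells also carry (chr17:87635979-87651129, plus strand), had 389, 132 and 413 against 233, 222 and 255. Mean levels in NCAM-enriched cells were 163% of bulk skin for Lgals3 and 132% for Epcam, the groups overlapped for both, and neither passed the test (log2 fold change 0.70 ± 0.56, adjusted p = 0.566, and 0.40 ± 0.46, adjusted p = 0.707).

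Mfge8, a secreted bridge between dying cells and phagocytes, had 361, 321 and 75.8 normalised CPM in NCAM-enriched cells and 530, 481 and 263 in bulk skin (59.5% of the bulk skin mean, adjusted p = 0.547). Ctsh, a lysosomal protease, had 62.2, 36.3 and 175 against 164, 175 and 145 (56.6%, adjusted p = 0.493). For both the groups overlapped. Ctsc, the protease that activates serine proteases of immune granules, had 34.5, 34.8 and 76.0 against 179, 137 and 141 (31.8%), so its groups did not overlap, yet it was not called (log2 fold change -1.65 ± 0.45, adjusted p = 0.0832). Ctsc was called by DESeq2, and Ctsc and Ctsh were called without NCAM-enriched library 3. Sirpa, described above, was at 93.7% of its bulk skin mean.

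Lyz2, the lysozyme of phagocytes, was the kept gene that edgeR called lower. It had 885, 277 and 411 normalised CPM in bulk skin and 3.19, 29.4 and 10.8 in NCAM-enriched cells (6, 38 and 38 counts), which was 2.75% of its bulk skin mean. Its log2 fold change was -5.22 ± 0.84 (adjusted p = 0.021), and it was not called without any 1 bulk skin library (adjusted p up to 0.116). The related gene Lyz1 shares 15.4% of the 50-base windows of Lyz2, so some of its reads may have been left uncounted or split.

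Ordered by normalised CPM per kilobase of exon, which allows levels of different genes to be compared, bulk skin was led by Fcer1g (808 ± 297, SD, n = 3), Cd52 (776 ± 318), Tyrobp (650 ± 183), Lgals3 (564 ± 203) and Lyz2 (399 ± 243). Each of these 5 lay within 1 SD of its neighbour in the order. Cd207 ranked 7 of 37 at 153 ± 21.96 per kilobase. In NCAM-enriched cells the order was led by Lgals3 (919 ± 492) and Epcam (142 ± 70.9), and Cd207 was at 0.169 ± 0.293 per kilobase.

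What was left of the blood-lineage genes differed from library to library. Of the 28, 15 had more than 3 counts over the NCAM-enriched group. In normalised CPM, 9 of these were highest in library 1 (Ptprc, Tyrobp, Fcer1g, Itgam, Spi1, Irf8, Cd53, Fcgr3 and Clec10a), 5 in library 3 (Cd52, Laptm5, Coro1a, Lcp1 and Cd37) and 1, Lyz2, in library 2. Library 2, the shallowest of the 3, held 59 counts over all 28 genes, of which Lyz2 gave 38, while libraries 1 and 3 held 576 and 835.

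Mast cell markers were high in NCAM-enriched library 1 alone, while the T cell marker sum was carried by Thy1. Mast cell markers summed to 1954 normalised CPM in NCAM-enriched library 1 and to 3.86 and 3.12 in libraries 2 and 3, against 442, 2079 and 1829 in bulk skin. The protease genes Cpa3 and Cma1 had 1257 and 778 counts in library 1, while in libraries 2 and 3 Cpa3 was at 0 and Cma1 at 4 and 0. The 9 members named above for library 1 were also highest there, Irf8, Spi1, Itgam and Clec10a as well as Fcer1g, Tyrobp and Fcgr3. None of the 5 mast cell markers was called between the groups. T cell markers summed to 5.85, 168 and 53.1 normalised CPM in NCAM-enriched cells and to 3018, 3129 and 3261 in bulk skin, and 5 of 6 were lower. The list was highest in NCAM-enriched library 2, where the blood-lineage members were lowest, through Thy1, a surface protein of T cells and neurons (9, 215 and 141 counts, named here after its values were seen). Cd3g had 1, 0 and 44 counts, Nkg7 had 0, 0 and 1, and Cd3d was at 0 in all 3. Apart from Thy1, the T cell markers thus held most of their counts in library 3. Cd52, Laptm5, Coro1a, Lcp1 and Cd37 were also highest there. Laptm5 and Ptprc were nearly even between libraries 1 and 3, at 30.8 and 32.3 normalised CPM for Laptm5 and 36.1 and 31.5 for Ptprc. Pan-leukocyte genes are made by T cells and mast cells as well as by Langerhans cells. The part of mast cells and T cells in the member results was not tested.

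Markers of monocytes and red blood cells were present in bulk skin and at or near 0 in NCAM-enriched cells, and those of dermal macrophages, neutrophils and B cells were low in both groups. Dermal macrophage markers summed to 14.3, 4.64 and 1.99 normalised CPM in NCAM-enriched cells and to 27.0, 23.3 and 23.03 in bulk skin, and 1 of the 6 was high enough to test. Monocyte markers summed to 132, 81.9 and 109 normalised CPM in bulk skin and to 3.72, 2.32 and 0 in NCAM-enriched cells, and the receptor gene Ccr2 had 197, 187 and 220 counts in bulk skin and 0 in every NCAM-enriched library (adjusted p = 0.0172). The neutrophil markers Ly6g and Retnlg held 1 count over all 6 libraries, and Csf3r had 24 counts in NCAM-enriched library 2. B cell markers held at most 6 counts in any NCAM-enriched library. Red blood cell markers were lower in 4 of 4 cases, with Hba-a2 at 808, 879 and 1012 counts in bulk skin and 0 in every NCAM-enriched library (adjusted p = 0.0023). The part of these cells in the member results was not tested.

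**Figure D3:**
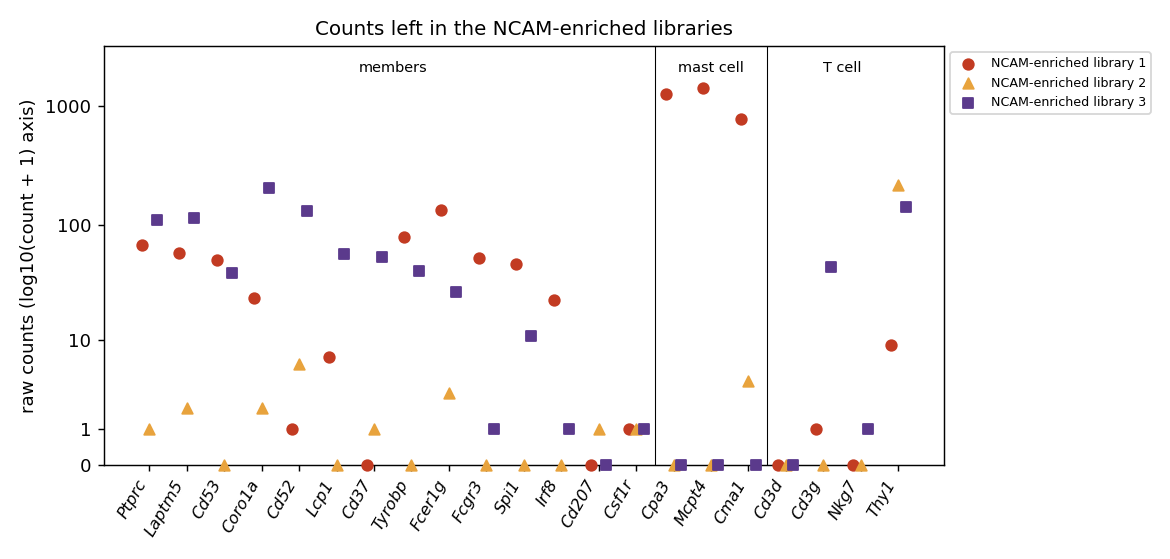
Raw counts of 14 members, 3 mast cell markers and 4 T cell markers in each NCAM-enriched library, on a log10(count + 1) axis. Red circles are library 1, orange triangles library 2 and purple squares library 3; Cpa3, Mcpt4 and Cma1 stand high in library 1 alone, Cd3g in library 3 and Thy1 in libraries 2 and 3, while Cd207 and Csf1r are at 0 or 1 in all 3.

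Set against the counts of Ptprc, Cd207 and Csf1r were fewer in NCAM-enriched libraries 1 and 3 than in bulk skin, a comparison chosen after the values were seen. Library 2 cannot be read on this scale, since it held 1 count each of Ptprc, Cd207 and Csf1r, or 100 per 100. Per 100 Ptprc counts, Cd207 had 49.2, 36.9 and 44.9 counts in the bulk skin libraries (pooled 42.9, 95% exact interval 40.9 to 44.9) and 0.556 over the NCAM-enriched group (0.014 to 3.14, 1 count beside 180 of Ptprc), with 0, 100 and 0 in its libraries. Csf1r had 21.9 (20.7 to 23.3) against 1.67 (0.341 to 4.95), with 1.47, 100 and 0.901 in the NCAM-enriched libraries. The pooled intervals did not meet for either gene. The fall was not particular to these 2 genes. By pooled counts Cd52 had 164 against 76.7 (61.0 to 96.2) and Lcp1 80.7 against 35.6 (26.3 to 47.5). Lyz2 had 91.7 against 45.6 (34.6 to 59.5). For Cd52 the fall rested on library 1, with 1.47, 600 and 118 in the NCAM-enriched libraries against 206, 90.6 and 222 in bulk skin. Tyrobp had 78.3 against 66.7 (52.5 to 84.5) and Laptm5 102 against 96.7 (78.0 to 120), pooled intervals that held the bulk skin value. For Tyrobp the NCAM-enriched libraries were uneven, at 116, 0 and 36.9, against 101, 56.3 and 86.1 in bulk skin. Fcgr3 went the other way, with 1.48 (1.19 to 1.82) against 30.0 (21.7 to 40.9), and Spi1 likewise with 13.5 against 32.2 (23.5 to 43.5), and both rested on library 1, with 77.9, 0 and 0.901 for Fcgr3 and 69.1, 0 and 9.91 for Spi1 in the NCAM-enriched libraries. Coro1a, with 63.3 against 127 (104 to 156), and Cd37, with 21.1 against 30.6 (22.2 to 41.5), were also higher by pooled counts. Both rested on library 3, with 35.3, 200 and 183 for Coro1a and 0, 100 and 48.6 for Cd37 in the NCAM-enriched libraries. In library 1 both genes lay under every bulk skin library, at 71.3, 66.0 and 52.6 for Coro1a and 23.1, 24.3 and 15.2 for Cd37. These intervals cover counting error only, and not the spread between libraries.

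Other genes of the same pathways, 69 in all with 64 tested, gave 7 lower and 1 higher, with a median log2 fold change of -1.21. Among signals that maintain Langerhans cells, 3 of 15 were lower. Tgfbr2, the ligand-binding TGF-beta receptor, had 843, 875 and 1081 counts in bulk skin and 85, 32 and 65 in NCAM-enriched cells (log2 fold change -3.08, adjusted p = 0.0175). Smad3, which carries its signal, had 140, 224 and 188 against 1, 3 and 7 (-4.86, adjusted p = 0.0271). Id2, a transcriptional inhibitor that Langerhans cells require, had 2590, 2622 and 4063 against 356, 171 and 442 (-2.48, adjusted p = 0.0225). In all 3 genes the groups stood apart, and innate lymphoid cells and T cells also use them.

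Among genes of ITAM signalling, the route of Tyrobp and Fcer1g, 1 of 13 tested was lower: Hcst, the adaptor DAP10, had 760, 648 and 1307 counts in bulk skin and 0 in every NCAM-enriched library (at least 528-fold lower, a bound of 250.1 once NCAM-enriched library 3 is left out, adjusted p = 0.0047). None of the 5 oxidase partners was called, with Rac2, the leukocyte GTPase of the complex, at 1840, 2114 and 1641 against 66, 0 and 84 counts (adjusted p = 0.0529), while the widely made Rac1 had 954, 1016 and 787 against 583, 409 and 640 (adjusted p = 0.886). Rac2 was at 0 in NCAM-enriched library 2, and Rac1 was high in every library.

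Of 12 further myeloid and dendritic transcription factors, Irf4, which dendritic and T cells use, was lower, with 99, 119 and 116 counts against 0, 0 and 1 (adjusted p = 0.0254). Cebpa, which keratinocytes also use, was higher, with 228, 405 and 202 against 735, 305 and 1631 (log2 fold change 2.35 ± 0.40, adjusted p = 0.0247). Of 7 tested genes of costimulation and maturation, Cd83, a marker of mature dendritic cells, was lower, at 356, 570 and 444 counts against 10, 0 and 25 (adjusted p = 0.0315). Of 12 cathepsins and inhibitors, Ctss, the protease that frees class II molecules for peptide in antigen-presenting cells, was lower, at 1374, 1046 and 932 against 0, 0 and 29 (log2 fold change -6.50, adjusted p = 0.0271). Ctsd, a cathepsin of most cells, had 900, 1844 and 1028 against 1592, 991 and 1928 (log2 fold change 1.17, adjusted p = 0.123). Of the 8 calls in these lists, only that of Hcst was also made without each bulk skin library in turn.

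**Figure D4:**
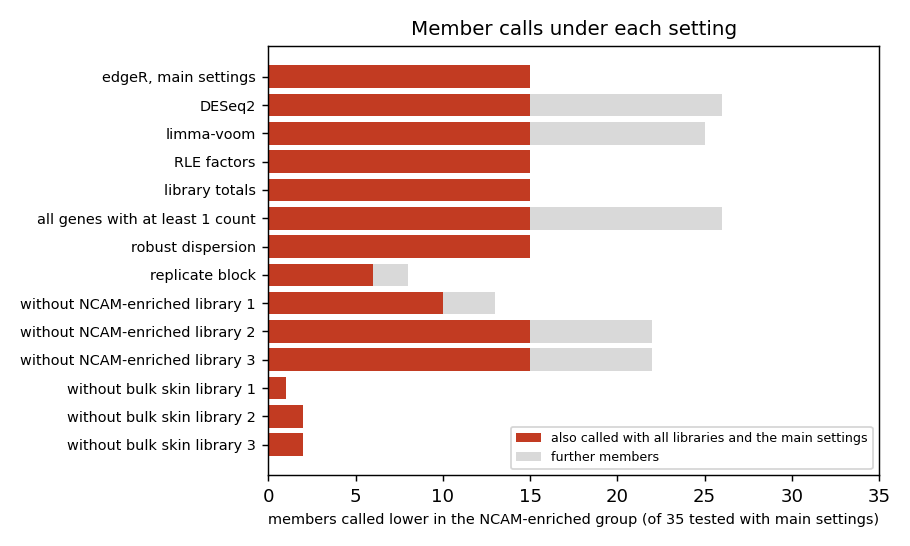
Number of the 37 genes called lower in NCAM-enriched cells with edgeR as described and under 13 alternatives. Red bars are genes also called by edgeR with all libraries and grey bars further genes; the count ran from 1 without bulk skin library 1 to 26 with DESeq2 or with all genes of at least 1 count.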

How the data were processed

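Libraries of 500 sorted events were made by Smart-seq2 and sequenced as 50-base single-end reads. The authors clipped the reads, aligned them to GRCm38 with STAR and counted them per gene with featureCounts. Neither the release of the annotation nor whether strand was used is given in the sources used here, so reads of overlapping genes cannot be assigned with certainty. The deposited values are raw counts per gene, which were used as deposited.

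Genes passing filterByExpr by group were tested with edgeR's quasi-likelihood test (edgeR 4.0.16, limma 3.58.1, R 4.3.3) with TMM factors, group as the only term and Benjamini-Hochberg adjustment over all 13157 genes, with calls at adjusted p values up to 0.05. The common dispersion corresponded to a biological coefficient of variation of 0.744. The standard error is the absolute log2 fold change over the square root of F. The script was tested on simulated data with known changes: the median fitted change was close to the one set, but most of the changed genes were not called. The study's tool, DESeq2 1.42.0, was an alternative, as were limma-voom, RLE factors, library totals, all genes with at least 1 count, robust dispersion, a replicate block and leaving out each library. No pair of libraries was a copy.

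For a gene with 0 counts in a group, a bound was set against 3 counts over the group; for 1 to 3 counts, the pooled ratio is given with a 95% exact interval. Intervals and bounds cover counting error only, since reads without molecular identifiers are not independent molecules. Gene positions and overlaps came from GENCODE on GRCm38, and promoters from RefSeq on GRCm38.p6. Plots were made in Python 3.11.15 using matplotlib 3.10.9. The members and lists were chosen with earlier results of these data known. Values in every library are given for members called or kept, and from each other list at most the 3 genes with the smallest p and the 2 with the highest mean were named, beside genes said to be chosen after their values were seen.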

Additional observations from a re-analysis of the deposited data

How the results depend on the processing

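Of 455 comparisons of the 35 tested members under the 13 alternatives, 346 kept direction and side of the threshold, 54 lost the call, 51 gained it and 4 reversed: Fcgr3 was at -2.30 with limma-voom, -2.95 with the replicate block and -5.16 without NCAM-enriched library 1, and Sirpa at 0.37 without NCAM-enriched library 1. Leaving out 1 library in turn gave -5.16 to 0.80 for Fcgr3 and -1.09 to 0.37 for Sirpa. The 15 members called lower became 26 with DESeq2, 25 with limma-voom, 26 with all genes of at least 1 count and 8 with the replicate block, and 1 to 22 when a library was left out. Over all genes, the 204 lower and 137 higher became, in the same order, 928 and 661 (DESeq2), 849 and 351 (limma-voom), 741 and 769 (no count filter beyond 1) and 92 and 50 (replicate block). Leaving out a library gave 13 to 733 lower and 0 to 1099 higher; the 0 came from edgeR without bulk skin library 1 or 2, where 2115 and 2237 genes had an unadjusted p under 0.05. The 7 lower and 1 higher of the pathway lists became 19 and 3 (DESeq2), 22 and 2 (limma-voom), 16 lower (no count filter beyond 1), 3 and 0 (replicate block), and 1 to 15 and 0 to 3 without a library. The 7 kept members became 8 to 15 when an NCAM-enriched library was left out, 15 without library 2. A rule on every library can only keep or add members when a library is dropped. The 7 became 8 at 3 counts in each library, 6 at 10 counts, where Lyz2 dropped out, and 6 after thinning to the smallest library total. They became 22 by a rule of more than 3 counts in the group, which was chosen after seeing the data. The cause of the changes in the calls was not tested, beyond fewer samples in the fits without a library. The summed level ratio of bulk skin over NCAM-enriched cells ran from 2.41 to 3.51 for all members (3.01 with all libraries) and from 21.5 to 41.3 for those of the blood lineage. The median of all genes shifted to -0.37 with limma-voom and -0.36 with the replicate block.

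The replicate numbers of the labels gave no sign of pairing: deviations from the group means correlated at 0.0226, 0.00025 and -0.0044 for the 3 numbers. Correlations near 0 in such variable libraries cannot exclude a shared source. The replicate block shared 6 of the 15 calls (Cd207, Csf1r, Lyz2, Cd52, Lcp1 and Cd53) and added Fcer1g and Tyrobp. Depth limits the members at 0 in NCAM-enriched cells, since 1 count there was worth 0.284 to 0.773 normalised CPM.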
